A study of Mus musculus with 13 samples.

Results

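BLIMP1 binding in germ cells made in culture was set against BLIMP1 binding in germ cells of the embryo. The 2 libraries of day 6 primordial germ cell-like cells (d6 PGCLC) and the 2 libraries of E12.5 primordial germ cells (E12.5 PGC, from embryonic gonads) were used, out of 12 ChIP libraries and 1 input library in all. Summits, the single positions at which peaks had been called, were merged when at most 200 bp apart, and binding in a cell type required a summit from each of its 2 libraries. Regions were called kept when bound in both cell types, culture only when bound in d6 PGCLC with no E12.5 PGC summit, and embryo only when bound in E12.5 PGC with no d6 PGCLC summit. These classes held 9004 of the 88402 regions of the 4 libraries, and merging the summits of all 12 ChIP libraries gave 155003 regions.

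All 4 libraries came from mice or mouse cells of strain C57BL/6, homozygous for a knock-in allele that puts EGFP on the N terminus of BLIMP1, and chromatin was precipitated with a rabbit polyclonal antibody to GFP (ab290). d6 PGCLC were derived from knock-in embryonic stem cells by way of epiblast-like cells and cultured as floating aggregates with LIF, BMP4, BMP8a, SCF and EGF, and were sorted as SSEA1+ and INTEGRINβ-3+. E12.5 PGC were sorted as SSEA1+ from gonads of embryos that had been obtained by intracytoplasmic sperm injection and embryo transfer, with male gonads giving one library and female gonads the other. These were taken as the libraries of one cell type and were not compared with each other. The sources used here give neither the number nor the sex of the stem cell lines, and the tag was on every BLIMP1 molecule in both cell types. No ChIP from untagged cells was analysed here. A list of summits measures no expression, so the cell types could not be checked against marker genes.

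BLIMP1, the product of Prdm1, binds DNA through zinc fingers and mostly represses transcription. It sets aside the germ line from the epiblast by shutting off the somatic programme, and in immune cells it drives the maturation of antibody-secreting plasma cells. It recognises an AGNGAAAG-like element that resembles the element of the interferon regulatory factors. PGCLC at day 6 are generally set beside migrating germ cells, whereas germ cells at E12.5 have settled in the gonad, so the comparison spans both culture against embryo and an earlier against a later stage, which cannot be told apart here.

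The libraries differed in length. d6 PGCLC replicate 1 listed 76185 summits from 300000 cells and replicate 2 listed 15411 from 1000000 cells, whereas the E12.5 PGC libraries listed 12291 from 330000 cells and 17798 from 360000 cells. d6 PGCLC replicate 1 stood apart from the other libraries, and 59267 of the 88402 regions held a summit of that library alone. The sources used here give no read depth, and whether the long list came from depth, threshold or signal was not tested. Because a culture-only region needs both d6 PGCLC libraries, the shorter replicate 2 limits the number of culture-only regions, whereas the long list of replicate 1 limits the number of embryo-only regions. The main counts, the distances to the other cell type, the AGNGAAAG shares and counts of several lists are therefore given also without replicate 1. The shares of the other motifs and the distances from motif to summit are not. No pair of a d6 PGCLC and an E12.5 PGC library shared more than 89 identical positions.

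Promoters of each class show the sequence under the summits. RefSeq promoter windows (GRCm38.p6, the coordinates of mm10) reach from 250 bases before to 50 after an annotated start. Each printed stretch runs 5′ to 3′ on the strand of its gene, up to 75 bases to each side of the mean summit and cut at the window's edge, and capitals mark matches, on either strand, to AGNGAAAG or to the tandem element, which is GAAA, any 2 bases and GAAA. Summits were called per library and positions may be off by 1 bp, since the sources used here do not say whether the lists count from 0 or 1.

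The first set shows kept promoters. Yap1, the transcriptional coactivator of the Hippo pathway, is given at chr9:8004611-8004761, minus strand. Erap1, which trims peptides for MHC class I, is given at chr13:74639783-74639902, plus strand. Bcl2l11, encoding the pro-apoptotic BIM, is given at chr2:128125967-128126087, plus strand. Rfx5, a factor that binds MHC class II promoters, is given at chr3:94953959-94954109, plus strand. Ndufa7, a subunit of respiratory complex I, is given at chr17:33824491-33824641, plus strand. Irgm1, an interferon-inducible GTPase, is given at chr11:48871432-48871582, minus strand.
Yap1: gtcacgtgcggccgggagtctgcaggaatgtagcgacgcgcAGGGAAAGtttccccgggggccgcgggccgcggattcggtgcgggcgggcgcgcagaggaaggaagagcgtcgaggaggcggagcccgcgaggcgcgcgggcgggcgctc
Erap1: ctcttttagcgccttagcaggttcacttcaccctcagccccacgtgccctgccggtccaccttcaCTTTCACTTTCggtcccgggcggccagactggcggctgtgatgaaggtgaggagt
Bcl2l11: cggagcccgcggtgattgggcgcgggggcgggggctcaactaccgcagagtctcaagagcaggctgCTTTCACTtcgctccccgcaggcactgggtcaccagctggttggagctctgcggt
Rfx5: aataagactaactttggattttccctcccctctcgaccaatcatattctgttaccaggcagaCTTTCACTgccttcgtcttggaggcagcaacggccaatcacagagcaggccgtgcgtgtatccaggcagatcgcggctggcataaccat
Ndufa7: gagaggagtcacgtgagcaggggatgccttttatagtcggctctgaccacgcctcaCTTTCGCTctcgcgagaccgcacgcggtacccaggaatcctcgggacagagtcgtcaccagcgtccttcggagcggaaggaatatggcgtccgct
Irgm1: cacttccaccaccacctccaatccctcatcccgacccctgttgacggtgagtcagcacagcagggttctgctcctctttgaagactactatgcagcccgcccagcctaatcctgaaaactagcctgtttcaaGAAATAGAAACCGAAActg

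The d6 PGCLC summits at Yap1 lay at positions -69 and -104 from the annotated start, and the E12.5 PGC summits at -97 and -90. At Rfx5 they lay at -79 and -72 in d6 PGCLC and at -82 and -64 in E12.5 PGC. At Irgm1 they lay at -71 and -123 in d6 PGCLC and at -78 and -76 in E12.5 PGC. The positions of both cell types overlapped at these 3 promoters. Yap1, Erap1, Bcl2l11, Rfx5 and Ndufa7 had a summit also in each of the 8 other ChIP libraries, and their printed stretches each hold 1 match to AGNGAAAG. In Erap1 that match overlaps a match to the tandem element. Irgm1 holds 2 overlapping matches to the tandem element and none to AGNGAAAG in its stretch, and among the other libraries only d2 PGCLC replicate 2 had a summit there.

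The second set shows culture-only promoters. Max, encoding the dimerisation partner of MYC and of MGA, is given at chr12:76962283-76962433, minus strand. Foxd2, a forkhead factor, is given at chr4:114908977-114909127, minus strand. Hells, encoding the chromatin remodeller LSH needed for DNA methylation, is given at chr19:38930925-38931039, plus strand. Cldn7, a tight-junction claudin, is given at chr11:69964563-69964713, plus strand.
Max: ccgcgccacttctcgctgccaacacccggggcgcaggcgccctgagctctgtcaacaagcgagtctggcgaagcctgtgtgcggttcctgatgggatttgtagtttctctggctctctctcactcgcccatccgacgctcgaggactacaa
Foxd2: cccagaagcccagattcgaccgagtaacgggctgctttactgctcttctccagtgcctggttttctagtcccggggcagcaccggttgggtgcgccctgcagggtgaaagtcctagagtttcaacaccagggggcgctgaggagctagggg
Hells: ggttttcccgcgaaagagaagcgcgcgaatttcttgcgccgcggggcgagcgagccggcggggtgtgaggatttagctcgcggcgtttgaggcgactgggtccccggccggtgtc
Cldn7: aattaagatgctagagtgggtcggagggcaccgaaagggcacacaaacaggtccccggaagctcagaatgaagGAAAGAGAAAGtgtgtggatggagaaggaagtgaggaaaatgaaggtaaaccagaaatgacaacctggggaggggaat

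The d6 PGCLC summits lay at -50 and -169 in Max, at -166 and -141 in Foxd2, at 50 and -30 in Hells and at -122 and -160 in Cldn7, and no E12.5 PGC summit was in these regions. Max also had a summit of both d2 PGCLC libraries and of no somatic library. Foxd2 and Cldn7 each had a summit in d2 PGCLC replicate 2 and in both libraries of intestinal epithelium and of plasmablasts. Foxd2 also had one in photoreceptor precursor replicate 2. Hells had a summit in both plasmablast libraries and in none of the others. Cldn7 is the one of the 4 whose stretch holds the 2 motifs, as overlapping matches, and it was chosen for that. The stretches of Max, Foxd2 and Hells hold no match to either.

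The third set shows embryo-only promoters. Psmc2, a subunit of the 19S proteasome cap, is given at chr5:21786641-21786791, plus strand. Sox15, a SOX-family factor, is given at chr11:69654795-69654945, plus strand. Nes, encoding the intermediate filament nestin, is given at chr3:87970935-87971085, plus strand.
Psmc2: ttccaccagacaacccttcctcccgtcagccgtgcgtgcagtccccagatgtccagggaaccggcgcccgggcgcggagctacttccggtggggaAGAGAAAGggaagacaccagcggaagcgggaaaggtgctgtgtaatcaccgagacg
Sox15: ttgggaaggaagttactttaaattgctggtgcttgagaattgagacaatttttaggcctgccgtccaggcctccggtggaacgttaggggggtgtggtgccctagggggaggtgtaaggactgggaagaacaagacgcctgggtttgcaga
Nes: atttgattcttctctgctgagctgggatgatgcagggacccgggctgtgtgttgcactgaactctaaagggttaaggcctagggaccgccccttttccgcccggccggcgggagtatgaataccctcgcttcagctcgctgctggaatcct

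The E12.5 PGC summits lay at -48 and -15 in Psmc2, at -220 and -114 in Sox15 and at -142 and -24 in Nes, with no d6 PGCLC summit in these regions. Psmc2 holds 1 match to AGNGAAAG and was chosen for it, and the Sox15 and Nes stretches hold none. Psmc2 had a summit in 5 of the 6 somatic libraries, Sox15 in d2 PGCLC replicate 2 alone, and Nes in no other library.

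With both libraries of each cell type required, kept regions outnumbered culture-only and embryo-only regions. Of 11033 regions bound in d6 PGCLC, 5247 were kept (47.6%, 95% Clopper-Pearson interval 46.6 to 48.5, which covers counting error only), 3215 were culture only (29.1%, 28.3 to 30.0) and 2571 had a summit of 1 E12.5 PGC library (23.3%). Of 7528 regions bound in E12.5 PGC, the same 5247 made up 69.7% (68.6 to 70.7), 542 were embryo only (7.2%, 6.63 to 7.81) and 1739 had a summit of 1 d6 PGCLC library (23.1%). Of those 1739, 1514 were in replicate 1 alone and 225 in replicate 2 alone. With replicate 2 as the single d6 PGCLC library, 6842 regions were culture only, 2073 were embryo only and 5379 were kept, so culture-only regions then outnumbered kept ones. The kept share was 35.0% of the regions with a d6 PGCLC summit, and it was 72.2% of the E12.5-bound regions. With replicate 1 as the single d6 PGCLC library, 62587 regions were culture only and 6675 kept, 8.77% of its regions were kept, and 89.4% of the E12.5-bound regions were. Of regions bound in the embryo most therefore had a d6 PGCLC summit under every choice, with 7.2%, 27.8% and 10.6% lacking one as reported, without replicate 1 and without replicate 2.

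**Figure D1:**
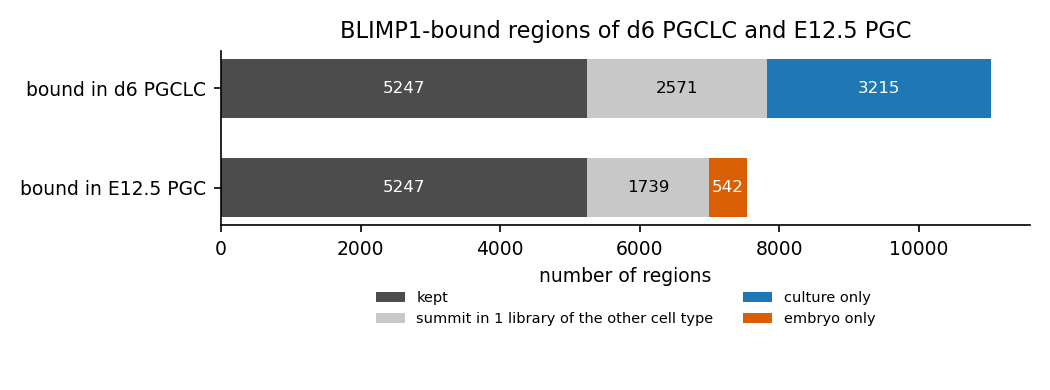
Number of regions bound in both d6 PGCLC libraries (upper bar) and in both E12.5 PGC libraries (lower bar), split by the state in the other cell type. The 5247 kept regions stand in both bars, and the 3215 culture-only regions outnumber the 542 embryo-only regions.

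In kept regions, where the merging itself holds summits close, the median distance between a d6 PGCLC and an E12.5 PGC summit was 43 and 39 bp for d6 PGCLC replicate 1 against each E12.5 PGC library and 51 and 44 bp for replicate 2. Between the 2 d6 PGCLC summits of the same regions it was 40 bp. The distance to the other cell type from culture-only and embryo-only regions turned on d6 PGCLC replicate 1. The nearest E12.5 PGC summit lay a median of 17218 bp from a culture-only region, and 61.5% of culture-only regions had none within 10 kb. The nearest d6 PGCLC summit lay a median of 529 bp from an embryo-only region, and 352 of the 542 embryo-only regions (64.9%) had one over 200 and up to 1000 bp away, against 393 culture-only regions (12.2%) with an E12.5 PGC summit at that distance. No d6 PGCLC summit lay within 1 kb of 190 embryo-only regions. Without replicate 1 the order was reversed. The nearest E12.5 PGC summit then lay a median of 2879 bp from the 6842 culture-only regions, with 36.0% at most 1000 bp away, and the nearest d6 PGCLC summit a median of 42599 bp from the 2073 embryo-only regions, with 19.5% at most 1000 bp away.

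**Figure D2:**
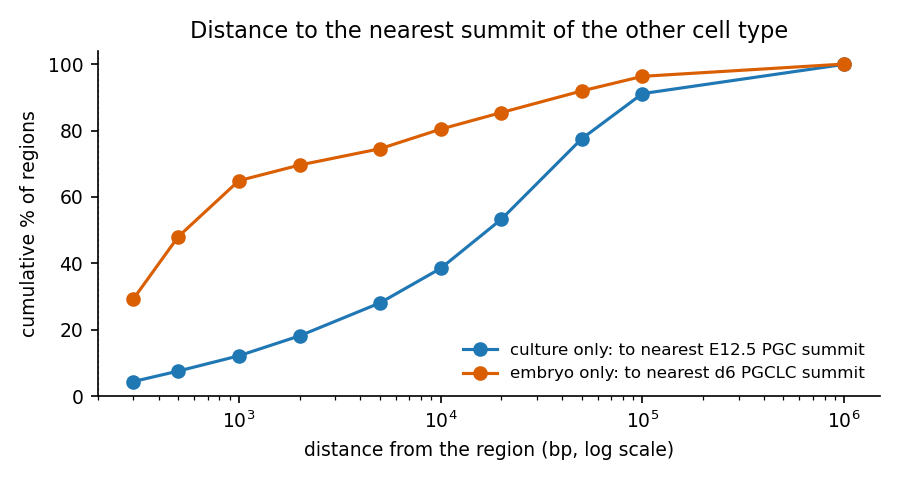
Cumulative percent of culture-only and embryo-only regions (y axis) with a summit of the other cell type within the distance on the x axis (bp, log scale), where by definition none lies within 200 bp. At 1000 bp the curve stands at 12.2% for culture-only and at 64.9% for embryo-only regions, an order that was reversed without d6 PGCLC replicate 1 (36.0% and 19.5%).

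Over all promoter windows, the BLIMP1-like motif was most frequent at kept regions. AGNGAAAG was found in 127 of 363 windows that overlap a kept region (35.0%, 95% interval 30.1 to 40.1), in 23 of 149 with a culture-only region (15.4%, 10.0 to 22.3), in 4 of 27 with an embryo-only region (14.8%, 4.19 to 33.7), and in 8.07% of all 21262 windows. The tandem element, which is typical of interferon-stimulated genes, was found in 58 kept windows (16.0%), in 7 culture-only windows (4.70%), in 0 of 27 embryo-only windows (interval up to 12.8%), and in 3.35% of all windows. The short core GAAAG, which is part of every AGNGAAAG, was in 84.3% of kept, 62.4% of culture-only and 59.3% of embryo-only windows, and in 55.0% of all. Windows of 1 gene and of neighbouring genes can share a region, so the intervals are too narrow, and regions are not replicates of a cell type. No test over libraries was made on the classes, because the libraries define them.

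The GC box and the AP-2 palindrome were not highest in kept windows. GGGCGG, the GC box bound by SP and KLF factors, was in 68.0% of kept, 71.1% of culture-only and 74.1% of embryo-only windows, against 46.2% of all, and the mean GC content was 61.1% in kept, 62.4% in culture-only and 63.6% in embryo-only windows, against 56.2% in all. GCCNNNGGC, the palindrome of the AP-2 family, to which the germ cell factor TFAP2C belongs, was in 48 culture-only windows (32.2%, 24.8 to 40.4), 84 kept windows (23.1%, 18.9 to 27.8) and 5 embryo-only windows (18.5%, 6.3 to 38.1), against 19.9% of all. Per library, with no class, it was in 26.8% and 26.3% of windows with a d6 PGCLC summit and 24.0% and 25.5% of those with an E12.5 PGC summit. CCGGAAG, the ETS element, was in 12.8% of culture-only, 18.5% of embryo-only (6.3 to 38.1) and 20.1% of kept windows, against 11.6% of all. The order of its kept and embryo-only shares was not stable. With windows widened by 250 bp on each side they were 18.0% in kept and 22.0% in embryo-only windows. Library by library, CCGGAAG was in 20.7% and 16.8% of windows with a d6 PGCLC summit, against 25.4% and 26.1% with an E12.5 PGC summit. All motifs were searched on both strands, and a match is a description of the letters in a window and not a binding site.

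The position of the motif went with the summit in kept promoters. The nearest AGNGAAAG lay a median of 27.4 bp from the mean summit in the 127 kept windows, with 75.6% within 50 bp, whereas the nearest CCGGAAG lay 61.0 bp and the nearest GCCNNNGGC 99.2 bp away in the kept windows that hold them. In the 23 culture-only windows AGNGAAAG lay a median of 45.0 bp away, close to the 47.0 bp of CCGGAAG in the 19 culture-only windows that hold it. GCCNNNGGC lay 76.5 bp away in culture-only windows. The mean summit was taken over 4 libraries in kept and over 2 in culture-only windows, so distances of the 2 classes are not like measures. Of the kept windows with AGNGAAAG, 83 of 127 (65.4%) had a summit in all 8 other ChIP libraries, against 100 of the 236 kept windows without it (42.4%). Of the culture-only windows 1 of 23 with and 5 of 126 without the motif did.

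Taken library by library, with no class, AGNGAAAG was in 14.9% and 24.7% of the windows with a d6 PGCLC summit (2334 and 684 windows) and in 28.3% and 24.6% of those with an E12.5 PGC summit (562 and 889 windows). The long replicate 1 had the lowest share, while d6 PGCLC replicate 2 lay within the range of E12.5 PGC. Without replicate 1 the motif was in 10.1% of culture-only windows, 35.8% of kept windows and 20.2% of embryo-only windows, so kept windows remained the highest. The order of culture-only and embryo-only windows rests on few windows and changed with the library used.

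**Figure D3:**
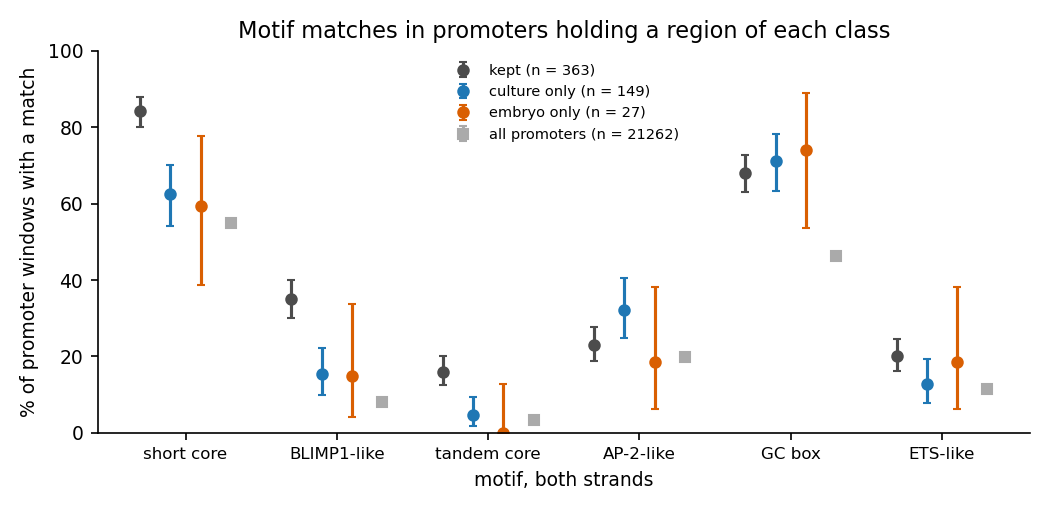
Percent of promoter windows of 300 bp with a match to each motif (y axis) for windows that overlap a kept, culture-only or embryo-only region and for all windows. Points are shares and bars are 95% Clopper-Pearson intervals of counting error. The BLIMP1-like motif stands at 35.0% in kept, 15.4% in culture-only and 14.8% in embryo-only windows, against 8.07% in all windows.

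Summits of the other cell types separated kept regions from the other classes most clearly in d2 PGCLC, cells of day 2 of the same kind of culture. Kept regions held a summit of d2 PGCLC replicate 1 in 86.5% and of replicate 2 in 90.8% of cases, culture-only regions in 40.9% and 56.8%, and embryo-only regions in 16.6% and 23.8%. At least 1 d2 PGCLC library had a summit in 94.8% of kept, 63.3% of culture-only and 31.2% of embryo-only regions. Without d6 PGCLC replicate 1 these shares were 94.0% in kept, 46.8% in culture-only and 50.8% in embryo-only regions, so the order of culture only above embryo only was lost. Kept regions need a summit in more libraries than the other classes, and the part of this in their higher shares, here and in somatic cells, was not tested. Read the other way, of d6-bound regions 62.2% were kept where both d2 PGCLC libraries had a summit, 29.2% where 1 had, and 14.7% where neither had.

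In somatic cells embryo-only regions stood above culture-only regions. The 6 libraries came from embryonic intestinal epithelium (emIE), photoreceptor precursors (PRP) and plasmablasts (PB), all with the same tag. Kept regions held a summit of emIE in 35.3% and 38.7% of cases, of PRP in 31.1% and 32.8%, and of PB in 47.1% and 44.4%. Culture-only regions did so in 6.69% and 9.27% for emIE, 5.97% and 7.47% for PRP, and 18.1% and 17.1% for PB. Embryo-only regions lay between these, with 15.1% and 17.0% for emIE, 14.4% and 15.3% for PRP, and 27.1% and 21.0% for PB. Any somatic summit was found in 29.1% of culture-only and 43.5% of embryo-only regions, against 61.1% of kept regions, and without d6 PGCLC replicate 1 in 29.9% of culture-only, 44.8% of embryo-only and 61.1% of kept regions. No other library had a summit in 860 culture-only regions (26.7%), 230 embryo-only regions (42.4%) and 169 kept regions (3.22%).

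**Figure D4:**
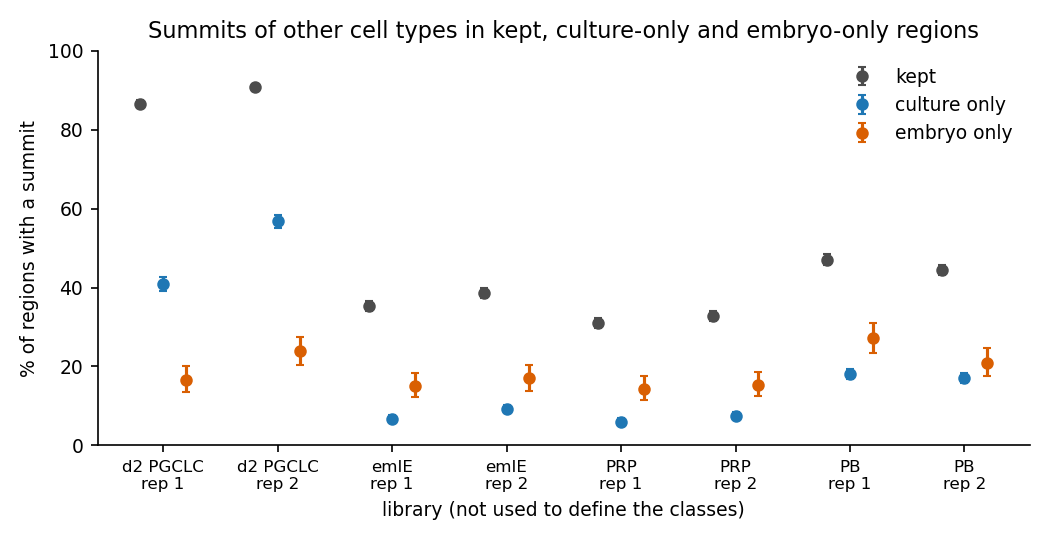
Percent of kept, culture-only and embryo-only regions (y axis) with a summit of each of the 8 ChIP libraries that did not define the classes (x axis, emIE intestinal epithelium, PRP photoreceptor precursors, PB plasmablasts). Bars are 95% Clopper-Pearson intervals of counting error. Kept regions stand highest in every library, culture-only regions stand above embryo-only regions in d2 PGCLC and below them in the 6 somatic libraries. The order in d2 PGCLC was lost without d6 PGCLC replicate 1 (46.8% of culture-only and 50.8% of embryo-only regions with a summit of any d2 PGCLC library).

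Measured over whole libraries, the differences in 3 shares were smaller than the spread between the d6 PGCLC libraries. The share of summits within 200 bp of a d2 PGCLC summit was 24.9% and 68.9% in the d6 PGCLC libraries, against 58.8% and 57.8% in the E12.5 PGC libraries. The d6 PGCLC values lay on both sides of the E12.5 PGC values. Their means were 46.9 ± 31.1% and 58.3 ± 0.733% (SD, n = 2 each, difference -11.4 points, exact permutation p = 1.0, two-sided). The share within 200 bp of a somatic summit was 22.6% and 43.0% in d6 PGCLC, against 44.9% and 41.8% in E12.5 PGC (difference -10.5 points, exact permutation p = 0.667). The share at protein-coding gene ends (1 kb to either side) was 13.2% and 15.7% in d6 PGCLC, against 13.5% and 13.7% in E12.5 PGC (difference 0.86 points, exact permutation p = 1.0). Within 5 kb of a gene end the shares did not overlap, with 30.7% and 32.8% in d6 PGCLC, against 27.0% and 27.6% in E12.5 PGC (difference 4.45 points, exact permutation p = 0.333, the smallest possible). After Benjamini-Hochberg adjustment over the 3 measures each exact permutation p was 1.0, and the smallest that 2 against 2 libraries allow is 0.333. Without d6 PGCLC replicate 1 the d2 PGCLC difference was 10.6 points, and without replicate 2 the gene-end difference was -0.36 points, both of the opposite sign.

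At gene ends the classes differed little, whereas embryo-only regions lay more often between genes. A gene end lay within 1 kb of 475 culture-only regions (14.8%) and 68 of the 542 embryo-only regions, against 800 kept regions (15.2%). A further 45.6% of culture-only, 38.4% of embryo-only and 42.9% of kept regions lay inside a gene. Between genes lay 39.6% of culture-only, 49.1% of embryo-only and 41.8% of kept regions. The X chromosome had few culture-only regions. Of 142 d6-bound regions on X, 80 were kept (56.3%, interval 47.8 to 64.6) and 19 were culture only (13.4%, 8.25 to 20.1), whereas on the 19 autosomes the kept share ran from 43.0% to 51.8% and the culture-only share from 26.5% to 35.3%. The interval of the kept share on X overlaps the autosomal range and that of the culture-only share does not. Without d6 PGCLC replicate 1 the culture-only share was 22.4% on X, against 44.7% on the autosomes. Of the 128 E12.5-bound regions on X, 80 (62.5%) were kept, against 66.9% to 73.0% on the autosomes. No interval was computed for this share, so a difference from the autosomes is not shown. The sources used here do not give the number of X chromosomes in the cultured cells, and its part was not tested.

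Genes were next assigned to the regions in them or within 5 kb of either end. Of 21883 protein-coding genes, 3217 (14.7%) had a kept region, 2093 (9.56%) a culture-only region and 325 (1.49%) an embryo-only region. Within 1 kb of a gene end, 944 genes (4.31%) had a kept, 541 (2.47%) a culture-only and 73 (0.334%) an embryo-only region. Of genes with a culture-only region, 716 (3.27%) had no E12.5 PGC summit at all, and of genes with an embryo-only region 17 (0.0777%) had no d6 PGCLC summit. Without d6 PGCLC replicate 1, 3238 genes had a kept, 3603 a culture-only and 1184 (5.41%) an embryo-only region. Long genes hold more regions by their length. The median length was 46766 bp for genes with a kept, 46660 bp with a culture-only and 65366 bp with an embryo-only region, against 17170 bp for all. Counts of 18 gene lists are read against these shares, with no test, since lists and members were chosen with results of these data known.

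The genes with the most kept regions were long. Dst, encoding the cytolinker dystonin, had 6, and Pard3b, Foxn3, Msi2, Ncald, Utrn, Dennd1a, Glis3 and Cadps2 had 5 each. Dst held 57 and 13 summits in the d6 PGCLC libraries, against 7 and 9 in the E12.5 PGC libraries. Gse1, encoding a subunit of a histone deacetylase corepressor complex, had the most culture-only regions, 9, beside 2 kept ones. It held 49 and 20 summits in d6 PGCLC, against 3 and 4 in E12.5 PGC. Cuedc1 had 5 culture-only regions, and Tspan9, Cdh13, Rbpms, Arid1b, Chst11, Sorcs2, Grik3 and Arhgap26 had 4 each. Embryo-only regions numbered at most 2 per gene. Igf1r, the receptor of insulin-like growth factor 1, had 2 beside 3 kept regions, and Rad54b, Rbfox1, Lama3, Atp1b1, Rassf5, Jam3, Ror1 and Tuba8 had 2 each.

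The genes with culture-only regions and no E12.5 PGC summit were ranked by their number of regions. Among the first by number of regions were Foxd2, Ncmap, Nkx6-2, Trim8 and Grhl3 with 3 each. Foxd2 held 10 and 6 summits in the d6 PGCLC libraries within 5 kb of a gene of 2619 bp. Nkx6-2, a homeobox factor of the neural tube, held 11 and 3, and Grhl3, a grainyhead factor of the epidermis, 12 and 3. None of these had a summit in either E12.5 PGC library. Genes with 2 regions followed, among them Olig1, a bHLH factor of oligodendrocytes, with 5 and 2 summits. The 17 genes with an embryo-only region and no d6 PGCLC summit had 1 region each, and numbered 464 without d6 PGCLC replicate 1, 256 without E12.5 PGC replicate 1 and 190 without E12.5 PGC replicate 2. There was 1 summit in each E12.5 PGC library at Rbbp6, Glce, Chchd5 and Polr1b. Chchd5 and Polr1b share that region.

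The list of MHC class I and antigen processing genes, which serve to present peptides of the cell to T cells, had the highest share of kept genes. Of 20 genes 10 (50.0%) had a kept region, against 14.7% of all genes, and 9 had it within 1 kb of a gene end, against 4.31% of all. The kept genes were Erap1, Nlrc5, Psmb8, Psmb9, Psmb10, Psme1, Psme2, Tap1, Tap2 and Tapbp. None of the genes of the class I chains themselves (B2m, H2-K1, H2-D1, H2-Q4, H2-Q7, H2-T23 and H2-M3) had a kept region. The genes of the list were short, with a median of 4951 bp. The 10 kept genes rested on 8 regions, since neighbours in the MHC share them. Tap1, encoding a subunit of the peptide transporter, had 6 and 3 summits in d6 PGCLC, against 1 and 4 in E12.5 PGC. Psmb9, an immunoproteasome subunit next to it, had 4 and 2 summits in d6 PGCLC, against 1 and 3 in E12.5 PGC. Psme2, an activator of that proteasome, had 5 and 2 in d6 PGCLC, against 2 and 3 in E12.5 PGC. Psmb10 was the first kept gene by the naming rule. All 4 libraries had a summit at each of these genes. Culture-only regions were at 3 of the 20 genes (Erap1, H2-Q4 and Nlrc5) and embryo-only regions at Psme2, Tap2 and Psmb8. Psme2, Tap2 and Psmb8 also had a kept region, and their 2 embryo-only regions had a d6 PGCLC summit within 1 kb.

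Interferon response genes were next. Of 42 genes 17 (40.5%) had a kept region, 11 of them within 1 kb of a gene end (26.2%), against 14.7% and 4.31% of all genes. Socs1, the feedback inhibitor of JAK-STAT signalling, held 9 and 5 summits in d6 PGCLC, against 2 and 2 in E12.5 PGC, with 2 kept regions and 1 culture-only region. Irgm2, an interferon-inducible GTPase, had 3 kept regions, and Trim21, an antibody receptor in the cytosol, had 1. Culture-only regions were at 4 genes (Trim25, Zbp1, Igtp and Socs1), close to the share of all genes, and embryo-only regions at Gbp2, Oasl2 and Ddx58, none of which held one when a d6 PGCLC summit within 1 kb was not allowed. Without d6 PGCLC replicate 1 the kept counts were again 10 of 20 for the MHC list and 17 of 42 for the interferon list, beside 14.8% of all genes. Embryo-only regions were then at 4 of 20 MHC and 5 of 42 interferon genes, beside 5.41% of all genes, at 3 of 28 BMP and TGF-beta genes, and at 0 to 2 genes of each other list.

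Genes of apoptosis and of respiration also had more kept genes than the background. Of 20 apoptosis genes 8 (40.0%) had a kept region, against 14.7% of all genes. A culture-only region was at 2 (10.0%), near the 9.56% of all genes. Bcl2l11, whose kept promoter is printed above, held 7 and 4 summits in d6 PGCLC, against 1 and 2 in E12.5 PGC. Trp53, encoding p53, held 5 and 3 in d6 PGCLC, against 1 and 3 in E12.5 PGC. Xiap, an inhibitor of caspases, and Hrk, a BH3-only activator of cell death, each had 1 kept region. Of 30 genes of oxidative phosphorylation 10 (33.3%) had a kept region and 2 (6.67%, Ndufs3 and Atp5d) a culture-only region, the second share below that of all genes. Atp5d, a subunit of ATP synthase, held 6 and 4 summits in d6 PGCLC, against 2 and 2 in E12.5 PGC. Neither list had an embryo-only region as reported. Cytosolic ribosomal protein genes were below the background, with kept regions at 2 of 32 (Rpl3 and Rps2).

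Pluripotency genes were divided between classes. Of 20 naive pluripotency genes 6 (30.0%) had a kept region and 5 (25.0%) a culture-only region, against 14.7% and 9.56% of all genes. Sox2 held 4 and 1 summits in d6 PGCLC, against 2 and 2 in E12.5 PGC, and had 1 kept region within 1 kb of a gene end. Klf5, a Krüppel-like factor, held 8 and 1 in d6 PGCLC, against 1 and 1 in E12.5 PGC. Stat3, the transcription factor downstream of LIF, had 2 kept and 2 culture-only regions. Nanog, a homeobox factor of the naive network, held 4 and 1 summits in d6 PGCLC, against 1 and 0 in E12.5 PGC, with 1 culture-only region. Klf2 held 8 and 1 in d6 PGCLC, against 0 and 1 in E12.5 PGC. Tbx3 held 10 and 2 in d6 PGCLC, against 1 and 0 in E12.5 PGC. The d6 PGCLC counts at these 3 genes lay at or above the E12.5 PGC counts, with d6 PGCLC replicate 1 far the highest, as over the genome.

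Pou5f1, encoding OCT4, and Klf4 had no region of any class, with 9 and 1 summits in d6 PGCLC at Pou5f1, against 0 and 1 in E12.5 PGC. Of 17 primed epiblast genes 1 (5.88%) had a kept region (Otx2) and 4 (23.5%) a culture-only region, Otx2 itself, Foxd3, Grhl2 and Fgf8. The shares of all genes were 14.7% and 9.56%. Foxd3, a forkhead factor, held 5 and 1 summits in d6 PGCLC and none in E12.5 PGC. Otx2, a homeobox factor that holds back germ cell fate, held 7 and 6 in d6 PGCLC, against 2 and 3 in E12.5 PGC.

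Mesodermal and Notch pathway genes followed the pluripotency genes in having culture-only regions. Of 24 genes of posterior mesoderm and the WNT response 5 (20.8%) had a kept and 6 (25.0%) a culture-only region, against 14.7% and 9.56% of all genes. T, encoding brachyury, held 6 and 2 summits in d6 PGCLC, against 1 and 1 in E12.5 PGC, with 1 kept region. Wnt3, the WNT ligand of gastrulation, held 11 and 3 in d6 PGCLC, against 1 and 3 in E12.5 PGC. Snai1, a repressor of epithelial genes, held 5 and 2 in d6 PGCLC and Foxf1, a factor of lateral mesoderm, 8 and 1, both with none in E12.5 PGC. Hand1, a bHLH factor of heart and extraembryonic tissue, and Sp5, a WNT target, also had a culture-only region, the second beside 2 kept ones. Eomes had 8 and 0 summits in d6 PGCLC, against 1 and 0 in E12.5 PGC, and no region of any class.

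Of 20 Notch pathway genes 4 (20.0%) had a kept and 6 (30.0%) a culture-only region, against 14.7% and 9.56% of all genes. The kept ones were at the receptor Notch1, the ligand Jag1 and the coactivators Maml1 and Maml2. Rbpj, the DNA-binding factor of the pathway, had 2 culture-only regions, with 10 and 2 summits in d6 PGCLC and none in E12.5 PGC. The ligand Jag2 held 7 and 1 and the glycosyltransferase Mfng 4 and 1 in d6 PGCLC, again with none in E12.5 PGC. The ligand Dll4 held 3 and 1 in d6 PGCLC, against 0 and 1 in E12.5 PGC. Without d6 PGCLC replicate 1, 11 of the 20 Notch genes had a culture-only region, beside 3603 of 21883 genes in all. By the same count culture-only regions were at 10 of 24 genes of posterior mesoderm and the WNT response, at 8 of 20 DNA methylation genes, at 7 of 20 naive pluripotency genes and also at 10 of 20 MHC class I genes, against 3 of 20 as reported. Of 28 genes of BMP and TGF-beta signalling 6 (21.4%) had a kept region (among them Acvr1, Fst, Smad4 and Id3). A culture-only region was at 4 of them (14.3%, Smad7, Id2, Nog and Tgfbr2). These shares stand beside 14.7% and 9.56% of all genes, and the list is one of long genes, with a median of 40089 bp against 17170 bp for all. Of 20 neural transcription factors 2 (10.0%) had a kept region (Pou3f3 and En2), 5 (25.0%) a culture-only region (Pax3, Pax6, Pou3f3 and Nkx2-2 first) and 1, Pou3f3, an embryo-only region. Of 39 Hox genes 10 (25.6%) had a kept region, on 8 regions that neighbours share, and 3 a culture-only region (Hoxb9, Hoxb13 and Hoxc10).

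Chromatin genes were represented in both classes. Of 20 DNA methylation genes 6 (30.0%) had a kept and 6 (30.0%) a culture-only region, against 14.7% and 9.56% of all genes. The list is one of long genes, with a median of 39264 bp against 17170 bp for all. Within 1 kb of a gene end, 0 of its genes had a kept and 1 a culture-only region. Dnmt3a, a de novo methyltransferase, had 3 kept regions, with 17 and 9 summits in d6 PGCLC, against 4 and 5 in E12.5 PGC. Tet1, Tet2 and Tet3, which oxidise methylated cytosine, had a kept region each, and Tet2 and Tet3 a culture-only region too. Hells, whose culture-only promoter is printed above, held 1 and 1 summits in d6 PGCLC and none in E12.5 PGC. Tdg, a glycosylase of active demethylation, also had a culture-only region. Dnmt3b and Uhrf1 had no region of any class. Of 22 H3K9 and polycomb regulators 5 (22.7%) had a kept region (Eed, Ehmt1, Kdm6b and Bmi1 first), 4 (18.2%) a culture-only region (Kdm6b, Kdm6a, Ehmt2 and Ezh2) and 1 an embryo-only region (Jarid2). These genes too were long, with a median of 32636 bp. Kdm6b, an H3K27 demethylase, had 3 culture-only regions beside 1 kept one, with 13 and 11 summits in d6 PGCLC, against 3 and 3 in E12.5 PGC. Of 30 cell cycle genes 9 (30.0%) had a kept and 6 (20.0%) a culture-only region. Myc held 5 and 7 summits in d6 PGCLC, against 1 and 2 in E12.5 PGC, with 1 kept and 1 culture-only region. Cdk6, a G1 kinase, had 2 kept and 1 culture-only regions, and Ccna2 and Rb1 had 1 kept region each.

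Germ cell specification genes were near the background for kept regions and gonadal and meiotic genes below it. Of 20 germ cell specification genes 3 (15.0%) had a kept region (Prdm1, Kdm3a and Tfcp2l1) and 3 a culture-only region (Prdm1, Tfap2c and Tfcp2l1). Prdm1 itself had 3 kept regions and 1 culture-only region, with 25 and 7 summits in d6 PGCLC, against 6 and 4 in E12.5 PGC. Tfap2c, which acts beside BLIMP1 in specification, held 10 and 1 summits in d6 PGCLC, against 0 and 2 in E12.5 PGC. At Prdm14, Nanos3 and Dppa3, a further regulator of specification, an RNA-binding protein and STELLA, the summits were those of d6 PGCLC replicate 1, which had 5, 5 and 3, and none came from replicate 2 or E12.5 PGC. Kit held 8 and 0 in d6 PGCLC, against 1 and 1 in E12.5 PGC, and Dnd1 4 and 1 in d6 PGCLC, against 0 and 1 in E12.5 PGC, with no region of any class. Of 30 gonadal and meiotic germ cell genes 1 had a kept region (3.33%, Piwil2), 2 a culture-only region (Tdrd7 and Tdrd12) and 14 no summit in any of the 4 libraries. Dazl, Mael and Sycp3 were among those 14, and Ddx4 held 2 and 0 summits in d6 PGCLC, against 0 and 1 in E12.5 PGC. Of 20 genes of gonadal somatic cells 3 (15.0%) had a kept region (Fst, Emx2 and Gata4), 1 (5.0%) a culture-only region (Pdgfra) and 0 an embryo-only region. The shares of all genes were 14.7%, 9.56% and 1.49%.

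**Figure D5:**
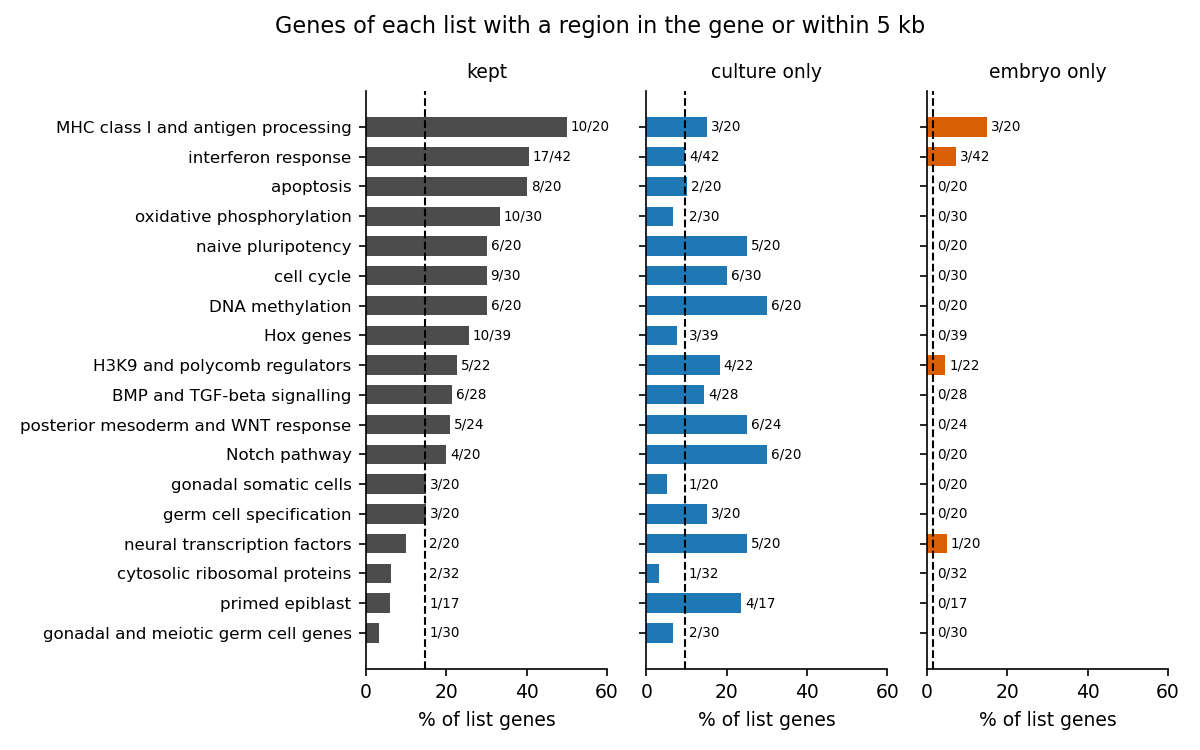
Percent of the genes of each list (x axis) with a kept, culture-only or embryo-only region in the gene or within 5 kb, with counts beside the bars. Dashed lines are the shares of all protein-coding genes, 14.7%, 9.56% and 1.49%. The list of MHC class I and antigen processing genes stands highest for kept regions at 50.0%, with none at the genes of the class I chains themselves. The Notch and DNA methylation lists stand highest for culture-only regions at 30.0%. The DNA methylation list is one of long genes (median 39264 bp, against 17170 bp for all genes).

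Among 1228 miRNA genes, 14 (1.14%) had a kept region within 1 kb, 15 (1.22%) a culture-only and 2 (0.163%) an embryo-only region. One culture-only region, chr3:127545033-127545099, lay 129 bp from Mir302b, the first gene of the miR-302 and miR-367 cluster, which is highly expressed in pluripotent cells. The d6 PGCLC summits were at 127545033 and 127545099. Both d2 PGCLC libraries had a summit within 200 bp and none of the 6 somatic libraries did. Mir302c, Mir302a, Mir302d and Mir367 follow within 1 kb of the region and account for 5 of the 15 culture-only genes together with Mir302b. Mature sequences from RefSeq are printed, with the seed (bases 2 to 8) in capitals, for this cluster and for miR-92b, whose gene had a kept region 130 bp away with summits at 89227390 and 89227368 in d6 PGCLC and at 89227328 and 89227331 in E12.5 PGC. The Mir302 genes lie on chr3 on the plus strand, and Mir92b on chr3 on the minus strand.
mmu-miR-302b-3p: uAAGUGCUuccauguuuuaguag
mmu-miR-302c-3p: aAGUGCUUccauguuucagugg
mmu-miR-302d-3p: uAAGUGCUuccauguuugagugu
mmu-miR-367-3p: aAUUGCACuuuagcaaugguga
mmu-miR-92b-3p: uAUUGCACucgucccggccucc

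The miR-302b and miR-302d seeds are the same, and that of miR-302c is shifted by 1 base. miR-367, in the culture-only cluster, and miR-92b, beside the kept region, share the seed AUUGCAC. Other kept regions lay 87 bp from Mir128-2, 480 bp from Mir203 and 694 bp from Mir301b, and other culture-only regions 279 bp from Mir375 and 625 bp from Mir9-1. These miRNA genes were chosen after their values were seen.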

How the data were processed

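Per the labels, BLIMP1 carrying EGFP was precipitated from d6 PGCLC and E12.5 PGC, 2 libraries each. The deposited files list, per library, the chromosome and position of each summit, with no height, score or p-value. The submitters' processing notes name Trim Galore 0.3.7, cutadapt 1.7.1, Bowtie 1.1.2, MACS2 2.1 and build mm10. The sources used here give no threshold, control or depth.

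Chromosomes 1 to 19, X and Y were used. Regions, merging (200 bp, single linkage) and classes were as defined in the report. Genes came from a RefSeq table of GRCm38.p6 without strand, so both gene ends were used in place of the planned start. Library measures were compared by an exact permutation test. Nothing shows separate cultures for the 2 d6 PGCLC libraries, so the spread between them may be technical. The E12.5 PGC libraries came from male and female gonads, so their spread also takes in sex and different embryos. Merging and classes were tested on simulated data. Members and lists were chosen with earlier results of these data known. Named genes are the 10 with the most regions per class, up to 4 members per list and class, and 24 fixed genes, and printed promoters and miRNAs were chosen after their values were seen. Values of a few named genes are not reported here. Alternatives were the merging distance, the gene window, the call in either library, and leaving out a library. Computation used Python 3.11.15, pandas 2.3.3, NumPy 2.4.6, SciPy 1.17.1 and matplotlib 3.10.9. The input library was not used.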

Additional observations from a re-analysis of the deposited data

How the results depend on the processing

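The class counts were the results most open to processing. Merging within 500 bp left 301 embryo-only regions, and asking for no d6 PGCLC summit within 1 kb left 190. With a summit in either library as the call, 14509 regions were kept, 65947 culture only and 7946 embryo only. Leaving out each library in turn gave 5379 to 7325 kept, 3632 to 62587 culture-only and 795 to 4945 embryo-only regions, and 3238 to 4175 genes with a kept region. Of genes with a culture-only region and no E12.5 PGC summit, against 716 as reported, there were 892 to 5770, and of genes with an embryo-only region and no d6 PGCLC summit, against 17, there were 17 to 464. The widest values came without d6 PGCLC replicate 2 for culture-only regions and without E12.5 PGC replicate 1 for embryo-only regions. Counting regions within 1 kb of a gene end gave 944 genes with a kept region and 422 with a culture-only region and no E12.5 PGC summit, and within 5 kb of an end, gene bodies left out, 1920 genes with a kept region. With a 5 kb window the difference in summits at gene ends was 4.45 points. Leaving out a library, it ran from -0.36 to 2.08 points, that in summits shared with d2 PGCLC from -33.4 to 10.6, and that in summits shared with somatic cells from -20.7 to -0.28, with the first reversed without d6 PGCLC replicate 2 and the second without replicate 1.

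Alternatives added after seeing the data were as follows. The kept share of d6-bound regions was 35.0% without d6 PGCLC replicate 1 and 8.77% without replicate 2. That of E12.5-bound regions was 72.2% and 89.4%, and the share with no d6 PGCLC summit 27.8% and 10.6%. With promoter windows widened by 250 bp on each side, AGNGAAAG was in 24.7% of kept, 10.1% of culture-only and 10.0% of embryo-only windows. The cause of these changes was not tested. No paired analysis was possible because the E12.5 PGC labels carry no replicate numbers. Without read depth or scores, a missing summit does not show that a region was unbound.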
